A study of Mus musculus with 3 samples.

Results

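The ribosomal protein genes were read in the transcriptomes of 3 mouse acute myeloid leukemias that lack miR-196b. Members were all rows of the deposited table whose symbol is Rpl or Rps followed by a number and at most the letters a, l or x, together with Rplp0, Rplp1, Rplp2 and Rpsa. This rule, which uses names and no values, found 80 genes of 28074 named symbols, 49 of the large ribosomal subunit and 31 of the small subunit. It leaves out genes of the same particle with other names, such as Fau and Rps3a1, which are given separately.

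The 3 libraries form 1 group, and each was made from the spleen of another mouse, taken when moribund. Per the labels the genotype was miR196b-/-, Dnmt3a fl/fl, Flt3 ITD/ITD with Mx1Cre, while the sample titles write Dnmt3a+/-. Flt3 ITD is an internal tandem duplication that activates the receptor Flt3, and Mx1Cre is a recombinase under an interferon-inducible promoter that acts in blood-forming cells and in other tissues. Red cells were lysed and c-Kit-bearing cells were enriched on magnetic beads before RNA was taken. The age of the mice is not given in the sources used here, and leukemias with miR-196b intact were not analysed here, so nothing below is a difference between genotypes. The numbers 1, 2 and 3 follow the accession order and serve as names for the mice alone.

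A ribosome is built from ribosomal RNA and about as many proteins as there are genes here, most of them present as a single copy in each particle, so the cell needs the proteins in nearly equal numbers. Their messenger RNAs are among the most abundant in dividing cells and start with a tract of pyrimidines, the TOP sequence, through which mTOR and the RNA-binding protein Larp1 set their translation. Loss of a single copy of several of these genes causes Diamond-Blackfan anemia, an inherited failure of red cell production, and some members are mutated or deleted in leukemia. Ribosomal protein messages have also been copied back into the genome many times, and the mouse genome carries a large number of these processed pseudogenes, some with the same sequence as the parent message.

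Values are TPM (transcript abundance per length, scaled to a fixed total per library), so levels of different genes can be set side by side. The depth reached is unknown, since TPM does not keep it, and the errors given are SDs over the 3 mice. The enriched cells expressed Kit at 133 to 149 TPM, Flt3 at 106 to 157 TPM and Myb at 124 to 193 TPM. Of the other progenitor and myeloid markers read, Cd34 had 137 to 202 TPM and Mpo 864 to 1632 TPM. Elane had 271 to 736 TPM and Cd33, the lowest, 7.65 to 13.3 TPM. Of the markers of other cells, 5 B cell genes summed to 12.8 to 16.4 TPM, 5 T and NK cell genes to 9.46 to 16.6 TPM, 4 macrophage genes to 16.5 to 29.6 TPM, 4 megakaryocyte genes to 41.8 to 81.3 TPM and 6 erythroid genes to 26.9 to 75.6 TPM. None of these markers was at 0 in all mice. The 6 late neutrophil genes (S100a8, S100a9, Ltf, Camp, Ngp and Lcn2) differed widely, with sums of 2447, 6424 and 21419 TPM in mice 1, 2 and 3. In bulk RNA, fewer cells of a type and less RNA per cell cannot be told apart.

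Ribosomal protein genes took up 8.52% ± 0.584 (SD, n = 3) of the summed TPM of all named genes. The share was 9.08% in mouse 1, 7.91% in mouse 2 and 8.58% in mouse 3. Mouse 2 was thus the lowest and mouse 1 the highest. The large subunit genes summed to 46262, 40293 and 43833 TPM and the small subunit genes to 37462, 32533 and 35226 TPM in the same order. The ratio of these sums was nearly constant, at 1.235, 1.239 and 1.244. Of the 80 members, 30 ranked among the 100 most abundant genes and 64 among the 500 most abundant. A mean TPM of at least 1 was reached by 76 members, and these had a median of 9.99 ± 0.118 (SD, n = 3) on the log2(TPM + 1) scale, against 4.19 ± 0.0755 for the 15181 genes of the table that passed the same filter.

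**Figure D1:**
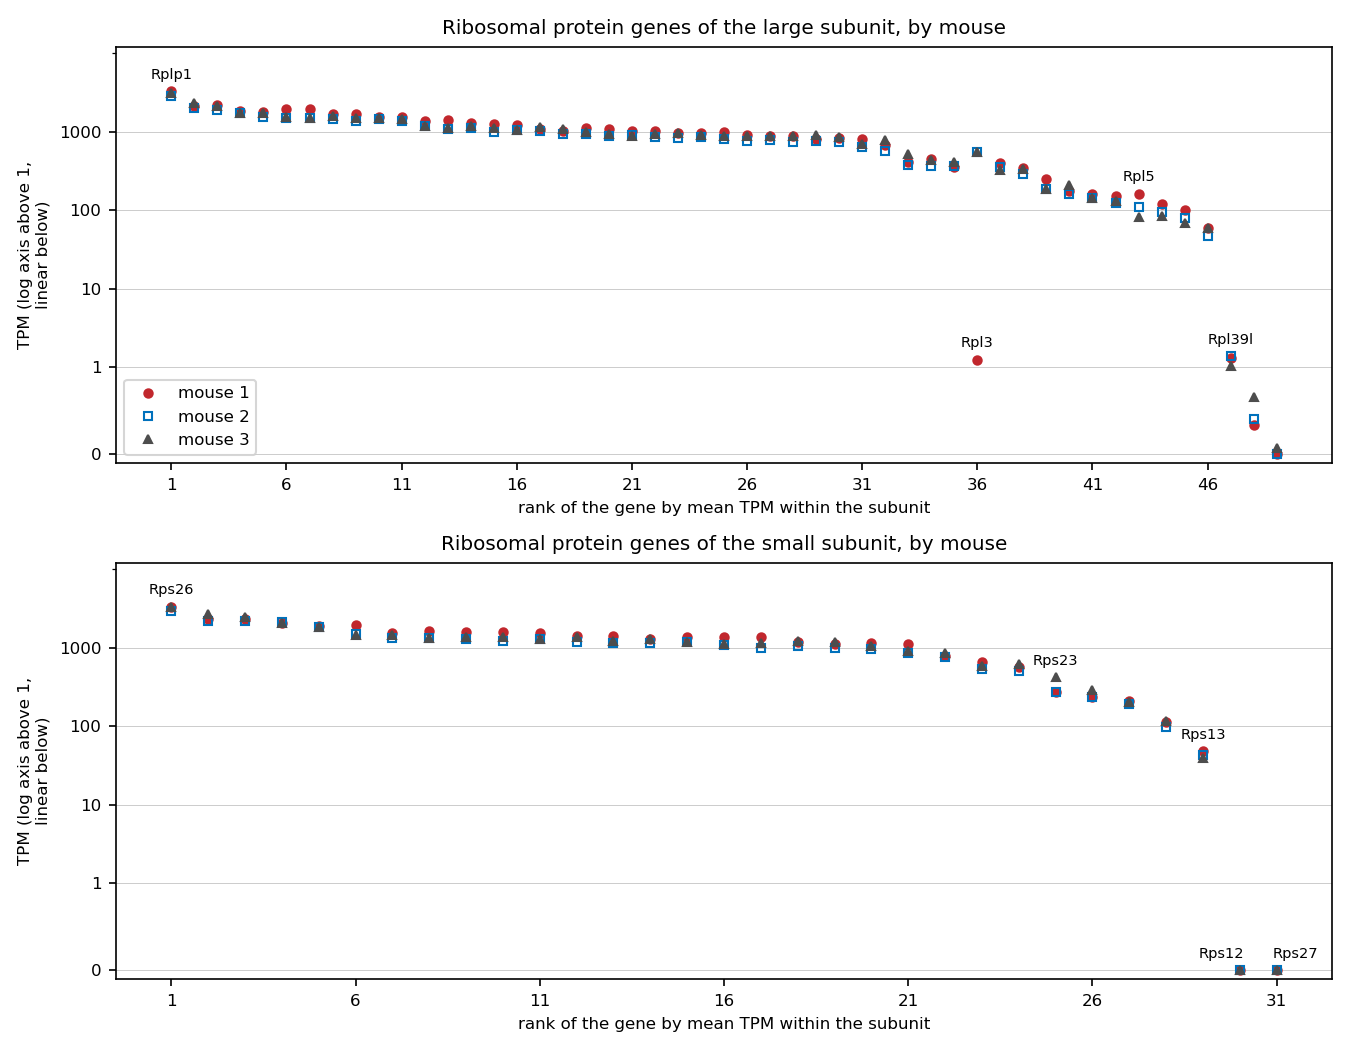
Level of each of the 80 ribosomal protein genes in TPM (vertical axis, logarithmic above 1 and linear below) in mice 1, 2 and 3, with large subunit genes above and small subunit genes below, each ordered by the rank of its mean (horizontal axis) and some genes named. In most genes the 3 mice lie close together, around a median of 1012 TPM over the 76 genes that passed the filter, while Rpl3 stands at 1.24 TPM in mouse 1, and Rps12 and Rps27 lie at 0 in every mouse.

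The most abundant member was Rps26, a small subunit protein at the exit of the mRNA channel, with 3344, 2967 and 3256 TPM in mice 1, 2 and 3. Rplp1, an acidic protein of the stalk that recruits translation factors, followed with 3274, 2811 and 3076 TPM. Their means were 3189 ± 197 and 3054 ± 233 TPM (SD, n = 3), and Rps26 was the higher of the pair in each of the 3 mice. Rps24 (2384 ± 238 TPM), Rps15 (2309 ± 131 TPM), Rpl23a (2156 ± 154 TPM), Rpl13a (2073 ± 158 TPM), Rps29 (1851 ± 52.9 TPM), Rpl35a (1773 ± 75.2 TPM) and Rpl32 (1671 ± 131 TPM) were also among the 10 highest. From Rps24 to Rpl32, each of these genes was above the next one named in all 3 mice, other than at 2 steps. From Rps24 to Rps15 and from Rpl23a to Rpl13a, the order differed between mice.

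The stalk of the large subunit holds a single Rplp0 with pairs of Rplp1 and Rplp2. Rplp0 had 1944, 1492 and 1522 TPM and Rplp2 had 1928, 1499 and 1497 TPM, so these members were nearly equal in each mouse and highest in mouse 1. Rplp1 was higher than both in every mouse. Rpsa, a small subunit protein also known as the laminin receptor, had 1534, 1301 and 1287 TPM.

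At the other end, 14 members had a mean below 200 TPM. In descending order these were Rpl21, Rpl15, Rpl27a, Rpl5, Rps7, Rpl12, Rpl27, Rpl31, Rps13, Rpl39l, Rpl3l, Rpl10l and, listed at 0 in all 3 mice, Rps12 and Rps27. Rps13 had 48.0, 43.3 and 39.0 TPM and Rpl31 had 59.0, 47.2 and 59.0 TPM, against a median of 1012 TPM over the 76 members with a mean of at least 1. The proteins of Rps12, Rps13, Rpl31 and most of the others are core parts of every ribosome, so a listed 0 is not read as absence of the message.

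The low rows were set beside the copies of each gene. A copy was a row whose transcript in the GENCODE M21 annotation (build GRCm38, the mm10 named in the submitters' processing notes) matched at least 80% of the member's coding sequence with at least 95% identity, or a row named as a pseudogene of that member. The table held 397 such rows for 67 members. Of these, 355 had a mean below 10 TPM, 24 had 10 to 200 TPM and 18 had more than 200 TPM. For 17 members the own row held less than 50% of the sum of gene and copies, and for 12 of the 17 the most abundant copy was identical to the coding sequence over the aligned bases. Where sequences are identical over their length, reads from within them cannot be told apart, and the level of the gene and of its copy are both uncertain.

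The stretches shown here are coding sequence of 3 members and their copies from the GENCODE M21 transcripts, chosen to show how few bases differ between a gene and an abundant copy. An identical copy did not always hold most of the sum, and the Rpl38 row held 77.9% beside Rpl38-ps2, which has 100% identity. Capitals mark the base that differs, and positions count from the first base of the start codon. The stretch runs from base 27 to 87 in Rpl3 (chr15:80077791-80091868, minus strand) and Rpl3-ps1 (chrX:13202571-13203780, plus strand), from base 87 to 147 in Rpl35 (chr2:39001580-39005624, minus strand) and Gm2000 (chr1:156366040-156366484, plus strand), and from base 1 to 61 in Rps13 (chr7:116331505-116334195, minus strand) and Rps13-ps2 (chr7:88530446-88530898, minus strand).
Rpl3: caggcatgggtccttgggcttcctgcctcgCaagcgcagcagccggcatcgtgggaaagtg
Rpl3-ps1: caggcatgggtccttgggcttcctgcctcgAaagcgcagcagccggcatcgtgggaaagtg
Rpl35: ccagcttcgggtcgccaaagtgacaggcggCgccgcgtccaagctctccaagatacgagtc
Gm2000: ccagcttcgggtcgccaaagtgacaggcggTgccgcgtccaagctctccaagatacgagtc
Rps13: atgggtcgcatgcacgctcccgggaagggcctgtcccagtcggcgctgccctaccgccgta
Rps13-ps2: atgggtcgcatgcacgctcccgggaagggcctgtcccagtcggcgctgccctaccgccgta

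Over the whole coding sequence, Rpl3 and Rpl3-ps1 differed at C57A and T786C among 1209 aligned bases. Rpl35 and Gm2000 differed at C117T among 369 bases. Rps13 and Rps13-ps2 did not differ among 453 bases.

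Rpl3, which lies at the peptidyl transferase center, was the only member at least 2-fold apart between the highest and the lowest mouse, 1 of 76, against 8.57% of all genes that passed the filter. The same count stood against 8.63% once libraries were scaled to a common upper quartile. Rpl3 had 1.24 TPM in mouse 1 against 546 and 549 TPM in mice 2 and 3. Rpl3-ps1 had 1113 TPM in mouse 1 against 467 and 469 TPM. The low mouse of the gene was thus the high mouse of the copy. The sum of Rpl3 with its 4 copy rows was 1119, 1016 and 1022 TPM, an SD of 0.0774 log2 units over the mice against 4.58 for the Rpl3 row alone. How far the assignment of reads to the 2 near-identical sequences has a part in the low Rpl3 row of mouse 1 was not tested.

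For Rps13, whose own row held 2.37% of the sum, Rps13-ps2 had 2022, 1665 and 1656 TPM. For Rpl31 the own row held 2.88%, and Rpl31-ps8 had 1811, 1702 and 1992 TPM. For Rps12, listed at 0, Rps12-ps3 had 1545, 1377 and 1802 TPM. These copies match the coding sequence at 100% identity, and each lay above the median member.

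A copy with 100% identity was likewise above its gene for Rpl12 with Gm10275 (1739 ± 221 TPM, SD, n = 3), Rpl27 with Rpl27-ps3 (1294 ± 94.2 TPM), Rpl27a with Gm7536 (1781 ± 87.7 TPM), Rpl15 with Rpl15-ps3 (1430.2 ± 165 TPM), Rps6 with Rps6-ps4 (1712 ± 162 TPM) and Rpl10a with Rpl10a-ps1 (997 ± 98.7 TPM). This was also seen for Rpl10 with Rpl10-ps3 (1621 ± 20.1 TPM), Rps16 with Rps16-ps2 (1579 ± 194 TPM) and Rps28 with Gm10443 (1376 ± 93.3 TPM). Rps6 is the small subunit protein phosphorylated by the S6 kinases, and its own row had 210, 190 and 201 TPM. Rps23, a protein of the decoding center, had 273, 277 and 418 TPM, and Rps23-ps, matched by name alone, had 2312, 1785 and 1810.2 TPM.

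With copies added, the change in the spread of levels among members depended on the filter. Among members with a mean of at least 10 TPM, the third quartile was 2.85 times the first for the own rows (75 members) and 1.69 times for the sums (76 members). The SD across these members was 1.39 log2 units for the own rows and 0.882 for the sums. Among members with a mean of at least 1 TPM, which include Rpl39l and, for the sums, Rps27 at 1.47 TPM, the SD was 1.74 for the own rows (76 members) and 1.78 for the sums (78 members), and in the small subunit 1.38 and 1.99. Since rows were added and none removed, the level of each member could only rise.

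**Figure D2:**
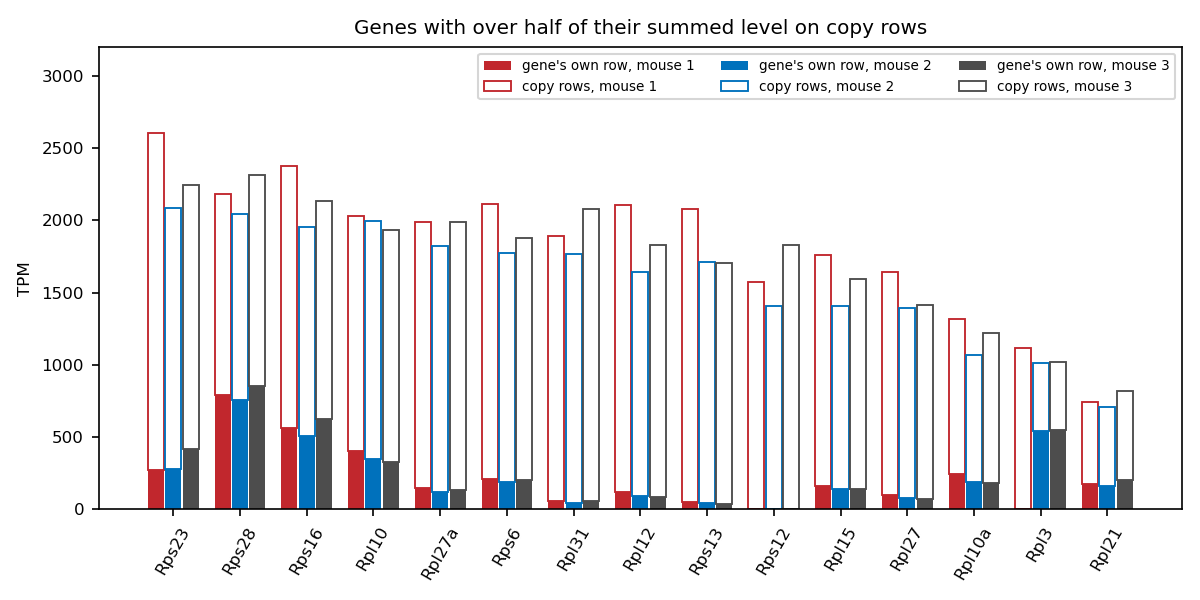
Summed level in TPM (vertical axis, from 0) of the 15 ribosomal protein genes whose own row holds less than 50% of the sum with their copies, leaving out Rpl10l and Rps27, whose sums are below 20 TPM. Filled bars are the gene's own row and open bars stacked on them its copy rows, in mice 1, 2 and 3; in mouse 1 nearly the whole bar of Rpl3 is copy rows, yet the 3 sums (1119, 1016 and 1022 TPM) lie close together.

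A few core members stayed low with their copies. Rps7 had 112, 98.1 and 116 TPM, and its sum with 2 copy rows averaged 117 ± 9.80 TPM (SD, n = 3). Rpl5 (chr5), which with Rpl11 and the 5S RNA forms the particle that binds Mdm2, had 162, 108 and 81.7 TPM, and its 2 copy rows added 1.46 TPM in the mean. Rps27 was at 0 with 1 copy row of 1.47 TPM, and further near-identical copies of Rps27, Rps7 and Rpl5 in the annotation were not analysed here. Rpl11 itself had 971, 837 and 963 TPM, and Rpl23, another Mdm2-binding member, 872, 789 and 880 TPM.

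Outside Rpl3, the members differed little between mice. The median SD per gene was 0.134 log2 units over the 76 members, against 0.208 over all genes that passed the filter. It was 0.134 in the large and 0.138 in the small subunit. The SD was below 0.25 in 71 of the 76. A highest mouse at least 1.2-fold over the lowest was found for 37 of 76 members (48.7%), against 72% of all genes, and after scaling for 27 (35.5%), against 67.7%. The members are far more abundant than the median gene, and the part of that in the narrower spread was not tested.

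Among the steadiest members were Rps29, with 1912, 1821 and 1820.4 TPM, and Rpl17, with 1526, 1431 and 1503 TPM. Their SDs were 0.0409 and 0.0487 log2 units. The highest mouse was 1.05 and 1.07 times the lowest in these genes.

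After Rpl3, the widest SD was that of Rpl5, at 0.490 log2 units. Its level in mouse 1 was 1.98 times that of mouse 3, with mouse 2 between them, and the SD stayed at 0.487 with copies. Rps23 followed at 0.349, highest in mouse 3 and lowest in mouse 1. With copies its SD was 0.164 and the order of mice turned, with 2603, 2083 and 2246 TPM. Rpl27 (0.261, 0.129 with copies) and Rpl12 (0.257, 0.181 with copies) also narrowed. Rpl36a, a protein near the tRNA exit site, had 684, 564 and 787 TPM and kept an SD of 0.239 with copies.

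Rpl22, an RNA-binding protein whose loss has been found in T cell leukemia, had 416, 373 and 514 TPM, highest in mouse 3. Rpl10a and Rps4x were also among the 10 widest, with SDs of 0.234 and 0.226 log2 units, and both were highest in mouse 1. With copies the SD of Rpl10a, whose own row held 17.2% of the sum, was 0.150, and that of Rps4x stayed at 0.226. Rps4x, the X-linked protein of the small subunit, had 1925, 1495 and 1445 TPM.

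Mouse 2 was the low mouse for most members. It held the lowest value for 57 of 76 (36 of 47 large and 21 of 29 small), or 75%, against 33% of all genes. Mouse 3 was lowest for 15 members (19.7%), against 42.6%, and mouse 1 for 4 (Rpl3, Rps23, Rpl36al and Rps27l), against 24.4%. With the libraries scaled to a common upper quartile the count was 60 of 76, or 78.9%, against 33.5%. The median log2 difference of mouse 2 from mouse 3 was -0.12 over members and 0.05 over all genes. Mouse 2 was higher than mouse 3 for 15 of 76 members (19.7%) against 57.1% of all genes. With copies added, 64 of the 78 members whose sum reached a mean of 1 TPM were lowest in mouse 2.

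**Figure D3:**
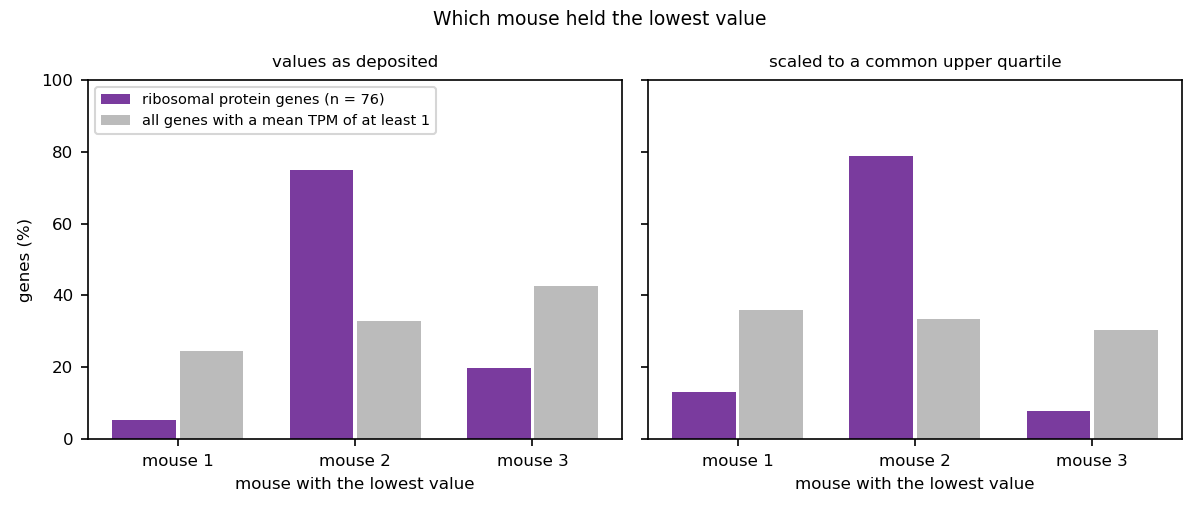
Percentage of genes (vertical axis, from 0) whose lowest value lay in mouse 1, 2 or 3, for the 76 ribosomal protein genes and the 15181 genes that passed the filter, in the values as deposited (left) and after scaling to a common upper quartile (right). Mouse 2 held the lowest value for 75% and 78.9% of the ribosomal protein genes.

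Which mouse was highest depended on the scaling. As deposited, 53 of 76 members were highest in mouse 1 (48.6% of all genes were), 21 in mouse 3 (20.3%) and 2 in mouse 2 (31.1%), among them Rpl39l. After scaling to a common upper quartile, 30 of 76 were highest in mouse 1 (35.6% of all genes), 44 in mouse 3 (30.4%) and 2 in mouse 2 (33.9%). That scaling moved mice 1, 2 and 3 by -0.08, 0.01 and 0.06 log2 units. The median difference of mouse 1 from mice 2 and 3 over members was 0.15 log2 units as deposited and 0.04 after scaling, and over all genes 0.10 and -0.01. The value over members was 0.0922 without mouse 2, when mouse 1 is set against mouse 3 alone, against 0.127 over all genes, and 0.209 without mouse 3, against 0.0838.

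The late neutrophil sums differ in these mice too, in the order mouse 1, mouse 2, mouse 3 from low to high, which is not the order of the ribosomal protein share. Their part in the differences was not tested.

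Among the 14 genes of the Diamond-Blackfan anemia list, own rows ran from 82.7 ± 15.3 TPM for Rpl27 to 3189 ± 197 TPM for Rps26 (SD, n = 3). The Rpl27 row held 5.57% of its sum with copies. With copies, Rpl27, Rpl15 and Rps28 had means of 1484, 1587 and 2182 TPM. The lowest of the list were then Rps7 (117 TPM) and Rpl5 (119 TPM). Rps19, the gene most often affected in that anemia, had 1364, 1087 and 1112 TPM. Rps10 had 1548, 1343 and 1449 TPM, and Rpl26 had 1097, 1025 and 1134 TPM. Of the 14, 10 were highest in mouse 1 as deposited and 4 after scaling, against 48.6% and 35.6% of all genes. In mouse 2, 10 were lowest as deposited and 9 after scaling, against 33% and 33.5%.

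Of the members linked to leukemia, Rps14, whose loss marks a form of myelodysplasia, had 1653, 1318 and 1334 TPM. Rps15, mutated in chronic lymphocytic leukemia, had 2331, 2168 and 2427 TPM. Rpl10, mutated in T cell leukemia, had 404, 350 and 330 TPM on its own row and 2027, 1997 and 1936 TPM with copies, so its order of mice held but its spread fell from 0.150 to 0.0337 log2 units.

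Rarer paralogs were read beside their common partners. Rpl22l1, which lies outside the symbol rule, had 214, 190 and 215 TPM, and made up 34.0%, 33.8% and 29.5% of the sum with Rpl22. Rpl36al, a relative of Rpl36a with a single exon, had 355, 369 and 406 TPM, or 34.2%, 39.6% and 34.0% of that pair. Both were thus sizeable parts of their pairs in every mouse.

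Rpl7l1 had 47.8, 47.0 and 45.5 TPM beside 1115, 925 and 980 TPM for Rpl7. Rpl39l, a paralog known from testis, had 1.30, 1.37 and 1.03 TPM beside 1034, 901 and 875 TPM for Rpl39, or 0.132% ± 0.0177 of the pair (SD, n = 3). Rpl3l, known from heart and skeletal muscle, had 0.334, 0.411 and 0.652 TPM. Rpl10l, known from testis, was listed at 0 in mice 1 and 2 and at 0.0736 TPM in mouse 3. The tissue-restricted relatives were therefore all below 2 TPM.

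Rps27l, a target of p53 that can stand in for Rps27, had 234, 235 and 292 TPM while Rps27 was listed at 0. A share of that pair is not given, since the Rps27 row holds no value. Rps27a, which is made as a fusion with ubiquitin, had 1106, 988 and 1170.3 TPM. Fau, which lies outside the symbol rule and is made as a fusion with a ubiquitin-like protein, had 773, 749 and 724 TPM. Rps3a1 had 1789, 1408 and 1559 TPM, and Gnb2l1, the ribosome-bound scaffold also called Rack1, had 1408, 1101 and 1068 TPM.

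The 76 genes for mitochondrial ribosomal proteins, which serve a separate ribosome, had a median of 5.47 ± 0.131 on the log2(TPM + 1) scale (SD, n = 3). They were lowest in mouse 2 in 53 of 76 as deposited and in 51 after scaling, against 33% and 33.5% of all genes. They were highest in mouse 1 in 52 of 76 as deposited, against 48.6% of all genes, and in 29 after scaling, near the 35.6% of all genes. Their median log2 differences were 0.22 for mouse 1 minus mouse 2 and -0.14 for mouse 2 minus mouse 3, against 0.21 and -0.12 for the cytosolic genes.

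Genes for building ribosomes had another order. Of 27 ribosome biogenesis genes, 26 were highest in mouse 1 as deposited and 25 after scaling, against 48.6% and 35.6% of all genes. Mice 2 and 3 differed by a median of 0.02 log2 units as deposited. Nop56, a core protein of the particles that methylate ribosomal RNA, had 353, 212 and 220 TPM. Npm1, the nucleolar chaperone nucleophosmin, had 1235, 871 and 984 TPM. Of 12 genes of RNA polymerase I and its factors, 9 were highest in mouse 1 under both scalings (48.6% and 35.6% of all genes were), among them Ubtf with 114, 74.4 and 86.0 TPM and Polr1b with 57.8, 44.3 and 35.7 TPM.

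Of 17 translation factors and other TOP messages, 15 were highest in mouse 1 as deposited and 12 after scaling, against 48.6% and 35.6% of all genes. Eef1a1, the factor that brings aminoacyl-tRNA, had 6514, 5652 and 5664 TPM, and Tpt1 had 3371, 3551 and 3509 TPM, lowest in mouse 1. Among 13 regulators, Myc, which drives ribosome production, had 258, 167 and 160 TPM, Mycn had 75.6, 33.3 and 27.7 TPM, and Larp1 had 13.7, 22.8 and 21.9 TPM. Over the 13 regulators 8 were highest in mouse 1 as deposited and 6 after scaling, against 48.6% and 35.6% of all genes.

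**Figure D4:**
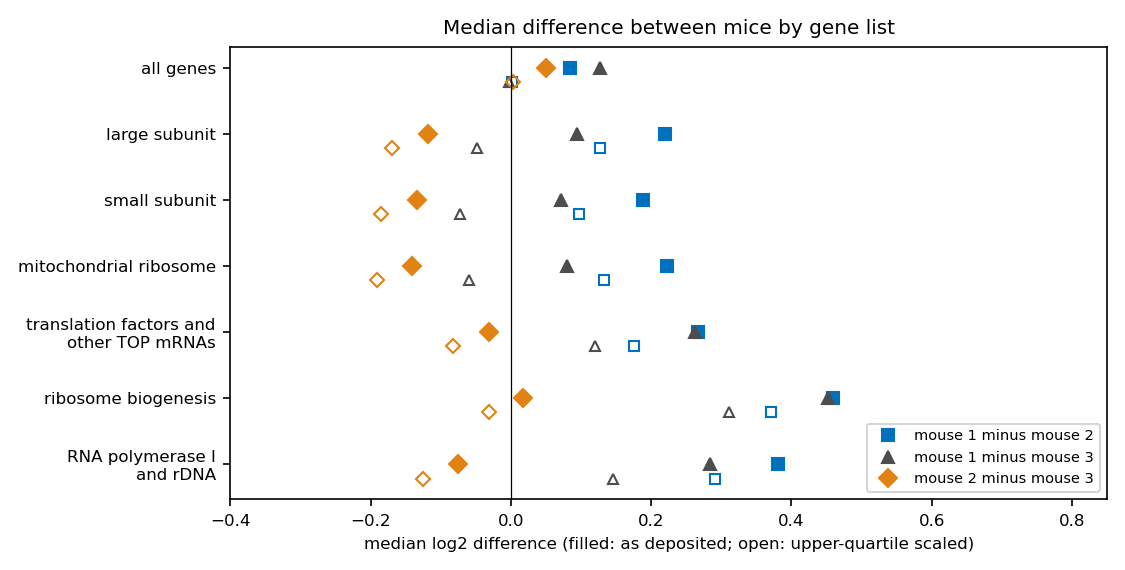
Median log2(TPM + 1) difference between pairs of mice (horizontal axis, log2 units) over the genes of each list with a mean TPM of at least 1, as deposited (filled) and after upper-quartile scaling (open). Both subunits and the mitochondrial ribosome show mouse 2 below mouse 3 and below mouse 1, while ribosome biogenesis genes show mouse 1 above both others, which lie together.

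The level of a member went little with the length of its coding sequence. Over the 76 members, whose coding sequences run from 153 to 1257 bases, Pearson's r across genes was 0.0722 and Spearman's rho -0.0454. Genes are not independent replicates, and the points share their libraries.

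Start sites were read for pyrimidine tracts, since the TOP sequence is the feature these messages share. RefSeq windows of build GRCm38.p6 were matched by symbol for 60 of the 80 members, with 72 windows. A run of at least 8 bases that are all C or T, on the gene's own strand and within 25 bases of the annotated start on either side, was present in 33 of the 72 windows (45.8%), against 19.7% of all 32851 windows of the same length and 22.7% of 75 windows of mitochondrial ribosomal protein genes. A match is a description of these letters only, and annotated starts can lie off the true start. The 4 most abundant members with such a run are shown, with the run in capitals, from 30 bases before to 20 bases after the annotated start: Rps26 (chr10:128626487-128626536, minus strand), Rps24 (chr14:24490648-24490697, plus strand), Rpl13a (chr7:45128726-45128775, minus strand) and Rpl35a (chr16:33056452-33056501, plus strand).
Rps26: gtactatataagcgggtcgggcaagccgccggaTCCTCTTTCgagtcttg
Rps24: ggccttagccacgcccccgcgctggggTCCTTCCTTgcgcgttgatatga
Rpl13a: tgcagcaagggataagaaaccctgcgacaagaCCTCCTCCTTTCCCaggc
Rpl35a: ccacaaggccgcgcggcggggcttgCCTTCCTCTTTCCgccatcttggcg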

How the data were processed

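RNA of c-Kit-enriched leukemic spleen cells of 3 mice was sequenced as paired ends of 150 nt, with 30000000 reads planned, per the labels' protocols. The labels name both ribosomal depletion and an mRNA kit. The authors deposited 1 table, named as log2 FPKM. Its columns hold linear numbers that sum to 927169 to 929731, and these deposited values were read as TPM. Kallisto and mm10 stand in the submitters' processing notes; the annotation is not given in the sources used here. TPM keeps no depth, so no counting interval is given. The table has 3 further per-sample columns, of another series, which were not used.

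Of 28987 rows, 795 without a symbol (0.532% to 0.608% of the column sums) and 27 with a date for a symbol were left out, and values of 90 symbols on several rows were summed. No member was on several rows. Spreads and medians use log2(TPM + 1), with a filter at a mean TPM of 1. There is 1 group, so nothing was tested and differences between mice carry no p-value. Copies were found with blastn 2.17.0 (E-value 1e-5) against GENCODE M21 transcripts. Each copy row was added to 1 member. For a row named as a pseudogene of a member this was the member in its name, and for the other rows the closest by sequence. The script for spreads was tested on simulated data. Scripts ran on pandas 2.3.3, numpy 2.4.6 and scipy 1.17.1 under Python 3.11.15, with matplotlib 3.10.9 for figures. Replicates came from different mice.

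Named genes are the 10 highest and 10 lowest members, the 10 widest, those 2-fold apart, those at 0, and the preset stalk, paralog, anemia, leukemia, fusion and Mdm2 lists. Rps29 and Rpl17 were chosen after their values were seen, as were the copies and their parent genes. From the other lists, genes of highest mean or largest SD are named. Some genes that this rule names are not reported here. The members and lists were chosen with earlier results of these data known. Alternatives covered scaling, the pseudocount, the filter, rows added or left out, and each mouse left out.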

Additional observations from a re-analysis of the deposited data

How the results depend on the processing

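No paired analysis was possible because the libraries form a single group. The share of ribosomal protein genes (8.52%) moved to 9.21% without mitochondrial genes and AY036118, and to 10.4% with pseudogene rows of the same parent added. It moved to 11.2% with all copies by name or by sequence added, an alternative chosen after seeing the data. The ratio of large to small subunit sums (1.239) moved to 1.18 and 1.268 with these additions. The median level was 9.82 for large and 10.3 for small subunit members on the log2(TPM + 1) scale. It moved to 10.05 and 10.5 without mitochondrial genes and AY036118, to 10.03 and 10.44 with pseudogene rows and to 10.19 and 10.46 with all copies. The count of members 2-fold apart, 1 (Rpl3), was 0 with either addition and ranged from 0 (without mouse 1) to 1 when a mouse was left out. The median SD of 0.134 ranged from 0.0969 (without mouse 1) to 0.151 when a mouse was left out. The median difference of mouse 1 from the others, 0.155, moved to 0.0373 after upper-quartile scaling and ranged from 0.0922 (without mouse 2) to 0.209 (without mouse 3) when a mouse was left out. Of 70 alternative values, 54 stayed within the SD of the result or, for the count, equal to the main value, 16 moved and 0 changed sign. Only the difference of mouse 1 from the others could change sign. For the share, the ratio and the median levels, the SD was over the 3 mice. A mean with a mouse left out always lies within that SD. For the median SD and the difference of mouse 1, the SD was over the values with a mouse left out. Adding rows raises levels by construction, and leaving out mouse 1 removes the low Rpl3 value; the cause of the other moves was not tested. The depth is unknown, so counting error in the low rows cannot be stated.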
